A study of Mus musculus with 20 samples.

Results

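This report describes the TCRα clones that used the V genes TRAV1, TRAV11 or TRAV11D in sorted CD8 T cells. Members were the clones whose CDR3 was in frame, without a stop codon, and whose first listed V gene was one of the 3. They numbered 2566 of 212832 in-frame clones (1.21%) and held 39506 of 3184301 in-frame molecules (1.24%). TRAV1 was the V gene of 1947 clones, TRAV11 of 618 and TRAV11D of 1. Within them, TRAV1 joined to TRAJ33 is called here the MAIT-type join (54 clones) and TRAV11 or TRAV11D joined to TRAJ18 the iNKT-type join (33 clones), and the other 2479 clones carried other J genes.

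The study sequenced TCR transcripts of CD8 T cells from mice that differ in the catalytic β5 subunit of the proteasome, to ask how the switch from one subunit to another between regions of the thymus shapes the receptors of these cells. Per mouse, 1000000 TCRβ-high CD4- CD8+ T cells were sorted from male mice aged 9 to 12 weeks, at a purity above 98%, so that up to 2% of the cells could be of other kinds. The sample labels give lymph nodes as the tissue and the protocol gives lymph nodes together with spleens. The groups used held 4 BIT, 5 β5i-KO, 4 β5t-KO and 4 WT mice, all on the B6 background. The β5i-KO mice lack β5i, the subunit of the immunoproteasome (gene Psmb8), and the β5t-KO mice lack β5t, the subunit of the thymoproteasome of the thymic cortex (gene Psmb11). The BIT mice are homozygous for an allele in which the coding sequence of β5t was placed in the gene of β5i, and the study worked mainly with 1 of several such lines. The study reports that β5i was lost in the BIT mice. It detected β5t in their cortical and medullary thymic epithelial cells, in dendritic cells and B cells of the thymus, and in the spleen. Genotypes could not be checked in TCR tables, which hold no Psmb8 or Psmb11 transcript, and neither could the sort, for want of Cd4 or Cd8a counts.

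The library of WT 5 was not analysed here, and the table of β5t-KO 5 held 24 in-frame clones, so neither entered a comparison. BIT 3 was left out as the BIT library with the fewest in-frame clonotypes (475). In the 17 mice used, a library held 13519 to 555786 in-frame molecules, counted by unique molecular identifiers, and 656 to 28642 in-frame clones. β5i-KO 4 stood apart, because 53.7% of its clones rested on a single molecule (6.24% to 9.73% in the other libraries) and no clone had fewer than 9 reads. β5t-KO 2 and β5t-KO 4 held the fewest in-frame clonotypes, 656 and 1743.

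In αβ T cells, the receptor α chain is made by joining 1 V gene to 1 J gene, and bases are trimmed and added at the junction, which encodes the CDR3. Most V genes can join many J genes. Mucosal-associated invariant T (MAIT) cells and invariant natural killer T (iNKT) cells are exceptions, since each population carries a nearly fixed α chain. Mouse MAIT cells join TRAV1 to TRAJ33 and recognise vitamin B2 metabolites presented by MR1, and mouse iNKT cells join TRAV11 to TRAJ18 and recognise glycolipids presented by CD1d. Both are selected on these MHC class I-like molecules displayed by double-positive thymocytes, in contrast to conventional CD8 T cells, which are selected on peptides bound to classical MHC class I molecules. Mouse iNKT cells mostly express CD4 or neither coreceptor, and mouse MAIT cells include cells that express CD8. Both V genes and both J genes can also be used by conventional T cells, so a V-J join alone does not identify a MAIT or iNKT cell. In these bulk libraries, fewer cells with a given receptor and less TCR RNA per cell cannot be told apart.

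The germline sequences below show what each gene brings to the junction, with the bases that belong to the CDR3 in capitals. They are from the mouse genome GRCm39 with the GENCODE annotation (release M39), all on the plus strand of chromosome 14, whereas the submitters' processing notes name mm10 and the clone tables hold no coordinates. For each V gene the last 50 bases are given, and the coordinates are those of the whole gene.
TRAV1, chr14:52665385-52666333: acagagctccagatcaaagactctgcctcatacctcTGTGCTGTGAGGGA
TRAV11, chr14:53756760-53757316: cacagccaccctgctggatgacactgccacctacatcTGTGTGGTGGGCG
TRAV11D, chr14:53061814-53062369: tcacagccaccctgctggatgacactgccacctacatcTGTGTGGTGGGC
TRAJ33, chr14:54422815-54422871: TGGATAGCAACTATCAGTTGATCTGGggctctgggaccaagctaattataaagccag
TRAJ18, chr14:54438234-54438299: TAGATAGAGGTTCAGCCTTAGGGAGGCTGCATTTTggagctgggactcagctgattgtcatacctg

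TRAV11 and TRAV11D are copies of one another. Their annotated sequences were identical over the 342 bases compared, and 616 of the 619 clones of either gene listed both, so the 2 are taken as a single unit below. The single clone listed under TRAV11D first came from β5i-KO 3 and held 2 molecules.

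The CDR3 sequences of the MAIT-type join found in most mice are shown next, because they show how close the junctions were to the invariant receptor. Capitals mark added bases, those that lie past the germline end of both the V and the J gene. They include palindromic bases, which repeat a gene's end in reverse complement and which the deposited alignments count with the gene. The residues encoded are given with each name.
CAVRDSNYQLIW (BIT 1, β5i-KO 1, β5t-KO 1, β5t-KO 3): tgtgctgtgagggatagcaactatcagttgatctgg
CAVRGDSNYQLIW (BIT 1, β5i-KO 3, β5t-KO 3): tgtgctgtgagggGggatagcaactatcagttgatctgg
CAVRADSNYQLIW (BIT 2, β5i-KO 4): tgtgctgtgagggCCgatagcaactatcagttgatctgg
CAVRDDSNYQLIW (WT 4, BIT 2): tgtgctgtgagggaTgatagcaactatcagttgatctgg
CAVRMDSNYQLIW (BIT 1, BIT 2): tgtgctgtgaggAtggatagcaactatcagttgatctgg
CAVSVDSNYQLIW (β5t-KO 2, shown for its size): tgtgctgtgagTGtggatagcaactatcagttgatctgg

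The first of these is the invariant CDR3α of mouse MAIT cells, of 12 residues. It needed no added base. It was read in 53 molecules over the 4 mice, with 11 in β5i-KO 1, 31 in β5t-KO 1, 5 in β5t-KO 3 and 6 in BIT 1, and in none of the 4 WT mice.

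The CDR3 sequences of the iNKT-type join found in most mice, and then those with the highest mean share of molecules, are shown in the same way. Each encodes 15 residues. The first encodes the invariant CDR3α of mouse iNKT cells, and the last, added to the set for comparison, encodes the same residues with no added base.
iNKT-type 1 (BIT 1, β5i-KO 1, β5i-KO 3): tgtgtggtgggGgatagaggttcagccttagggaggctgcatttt
iNKT-type 2 (BIT 1, β5i-KO 1): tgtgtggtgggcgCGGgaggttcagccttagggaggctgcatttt
iNKT-type 3 (WT 2): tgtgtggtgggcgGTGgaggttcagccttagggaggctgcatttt
iNKT-type 4 (β5i-KO 5): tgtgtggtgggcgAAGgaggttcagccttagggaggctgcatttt
iNKT-type 5 (BIT 4): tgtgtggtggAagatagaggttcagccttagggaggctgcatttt
iNKT-type 6 (β5i-KO 1): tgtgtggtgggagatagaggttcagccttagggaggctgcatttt

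The invariant iNKT residues were read in 24 molecules, of which 18 came from β5i-KO 1 (8 and 10 from the first and the last sequence), 3 from β5i-KO 3 and 3 from BIT 1. No WT and no β5t-KO mouse had them. The mice that did held 24906, 26948 and 28641 in-frame clonotypes, more than any other mouse used. The β5t-KO mice held 656 to 8168 and the WT mice 2589 to 18470. The order by in-frame molecules differed. The mice with these residues held 191947, 269678 and 383303, whereas WT 3 and WT 4, without them, held 311434 and 555786. The part of depth in which mice had these residues was not tested.

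TRAV1 averaged 0.815% of the in-frame clonotypes of a mouse and ranked 36 of 90 V genes. A clonotype here is a distinct combination of V gene, J gene and CDR3 nucleotide sequence in a mouse. In WT mice, TRAV1 made up 0.811%, 0.808%, 0.691% and 0.931% of in-frame clonotypes. In β5i-KO mice its shares were 0.956%, 0.736%, 0.805%, 0.614% and 1.03%. The WT values all lay within the range of the β5i-KO values. In β5t-KO mice TRAV1 made up 0.747%, 0.457%, 0.771% and 0.344%, and in BIT 1, 2, 4 and 5 it made up 0.992%, 0.752%, 1.44% and 0.971%. The 2 lowest β5t-KO shares rested on 3 clonotypes in β5t-KO 2 (95% Wilson interval 0.156% to 1.34%) and on 6 in β5t-KO 4 (0.158% to 0.749%). These intervals, and all others here, cover counting error only.

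TRAV1 averaged 1.04% ± 0.288 (SD, n = 4) in the BIT mice, 0.810% ± 0.098 (n = 4) in the WT mice, 0.828% ± 0.168 (n = 5) in the β5i-KO mice and 0.580% ± 0.212 (n = 4) in the β5t-KO mice. BIT against β5t-KO was the one comparison in which TRAV1 passed the test. TRAV1 was 0.62 higher in BIT on the log2 scale (SE 0.22), with an adjusted p of 0.0497 by edgeR's quasi-likelihood test over 90 V genes. In that comparison 15.6% of the V genes tested were called, and 6.67% of those tested were called higher in BIT. The groups overlapped, since BIT 2 lay below β5t-KO 3. The call was lost without any single one of 7 of the 8 mice compared, the exception being BIT 2 (adjusted p between 0.0367 and 0.258), and without BIT 4 the difference was 0.42. Scaling by TMM gave 0.56 with an adjusted p of 0.108, and molecules in place of clonotypes gave 0.75 with 0.192.

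In the other comparisons TRAV1 was not called. Against WT, it differed by 0.04 (SE 0.18, adjusted p = 0.955) in β5i-KO, by -0.24 (SE 0.23, 0.564) in β5t-KO and by 0.37 (SE 0.18, 0.223) in BIT, on the log2 scale by edgeR. The background was 1.11%, 7.78% and 2.22% of V genes called in these 3 comparisons. BIT differed from β5i-KO by 0.33 (SE 0.16, adjusted p = 0.796), where edgeR called 0 of 90 V genes (0%) and 3 had an unadjusted p under 0.05. The 3 comparisons against WT share the WT mice, and the 3 that involve BIT share the BIT mice. As a share of molecules, TRAV1 stood at 1.19% ± 0.376 in the BIT mice, 0.846% ± 0.228 in the WT mice, 0.880% ± 0.239 in the β5i-KO mice and 0.706% ± 0.320 in the β5t-KO mice.

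**Figure D1:**
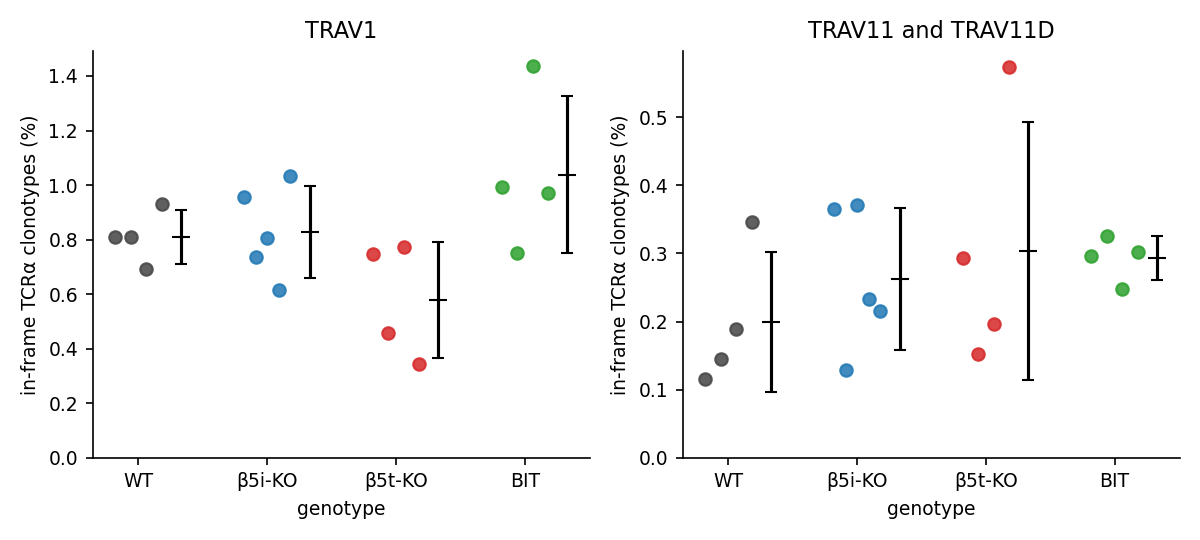
Share of in-frame TCRα clonotypes (%, linear axis from 0) that used TRAV1 (left) or TRAV11 and TRAV11D (right) in each mouse, by genotype; circles are mice and the dash with bars gives the mean and SD. TRAV1 spans 0.344% to 1.44% over the 17 mice with BIT 4 highest, and TRAV11 with TRAV11D spans 0.116% to 0.574% with β5t-KO 4 highest.

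TRAV11 and TRAV11D together ranked 60 of 90, at a mean of 0.265% of clonotypes. Their shares were 0.116%, 0.145%, 0.190% and 0.347% in WT mice and 0.365%, 0.129%, 0.371%, 0.234% and 0.215% in β5i-KO mice. They were 0.293%, 0.152%, 0.196% and 0.574% in β5t-KO mice, and 0.297%, 0.325%, 0.248% and 0.302% in BIT 1, 2, 4 and 5. All 4 groups overlapped. The BIT mice lay closest together (SD 0.0325 percentage points around 0.293%), and the β5t-KO mice farthest apart (SD 0.189 around 0.304%). The highest β5t-KO value came from 10 clonotypes of β5t-KO 4 (0.312% to 1.05%) and the lowest from 1 clonotype of β5t-KO 2 (0.0269% to 0.858%).

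TRAV11 was called in none of the 5 comparisons by edgeR, and its unadjusted p was 0.185 or higher in each. TRAV11D did not pass the filter of 5 clonotypes in 4 libraries. Against WT, TRAV11 differed by 0.36 (SE 0.27, adjusted p = 0.585) in β5i-KO, by 0.24 (SE 0.36, 0.696) in β5t-KO and by 0.31 (SE 0.27, 0.519) in BIT, on the log2 scale. BIT differed by -0.05 (SE 0.23, adjusted p = 0.984) from β5i-KO and by 0.07 (SE 0.33, 0.916) from β5t-KO.

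The V genes whose shares over the 17 mice ranked most like those of the members are given as a description, without a test, since the points share depth and genotype. For TRAV1 these were TRAV6D-4 (Spearman rho 0.66), TRAV15N-1 (0.50) and TRAV7N-4 (0.49). For TRAV11 with TRAV11D they were TRAV13D-1 (rho 0.88), TRAV6N-6 (0.81) and TRAV7-4 (0.79). The shares of TRAV1 and of TRAV11 with TRAV11D had a rho of 0.12 with each other.

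The MAIT-type join was rare. It was found as 54 clonotypes and 797 molecules in 14 of 17 mice, with at most 8 clonotypes in a mouse. In WT mice it held 0%, 0%, 0.0305% and 0.0214% of in-frame molecules, where 0 of 71357 molecules in WT 1 allows a share of up to 0.00420% and 0 of 175738 in WT 2 up to 0.00171%. In β5i-KO mice it held 0.0276%, 0.00952%, 0.0185%, 0.0296% and 0.0106%. The fourth of these rests on 4 molecules of the shallowest library (0.0115% to 0.0761%). In β5t-KO mice the shares were 0.0198%, 0.176%, 0.0328% and 0%, where 0 of 156150 molecules in β5t-KO 4 allows up to 0.00192%. In BIT 1, 2, 4 and 5 they were 0.0261%, 0.0469%, 0.0356% and 0.0265%. Thus all 4 BIT mice and all 5 β5i-KO mice had the join, and the ranges of all groups overlapped.

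The highest share, 0.176% in β5t-KO 2 (0.148% to 0.209%), was a single clonotype of 131 molecules, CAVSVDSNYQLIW, which has 1 residue more than the invariant sequence. The β5t-KO mice averaged 0.0571% ± 0.0803, the BIT mice 0.0338% ± 0.0098, the β5i-KO mice 0.0192% ± 0.0093 and the WT mice 0.0130% ± 0.0154. By exact permutation tests, two-sided and adjusted over the 10 tests of both joins, the higher mean of BIT did not pass the 0.05 threshold against WT (p = 0.0857, adjusted p = 0.476) or against β5i-KO (p = 0.0952, adjusted p = 0.476). The exact p was 0.508 for β5i-KO against WT, 0.371 for β5t-KO against WT and 0.943 for BIT against β5t-KO, with adjusted values of 0.726, 0.714 and 0.943. The smallest p these designs allow is 0.0286 for 4 mice against 4 and 0.0159 for 5 against 4. Without β5t-KO 2 the difference between BIT and β5t-KO turned from -0.0233 to 0.0163 percentage points, still with no call. Every library was also thinned at random to 13519 molecules, the depth of the shallowest, in a single draw. In it the 4 BIT mice stood at 0.0370% to 0.0666% and the 5 β5i-KO mice at 0% to 0.0296%, with no overlap. At full depth they overlapped, with BIT 1 (0.0261%) below β5i-KO 4 (0.0296%). In the draw, the means of BIT and β5i-KO differed by 0.0348 percentage points rather than 0.0146 (exact permutation test, adjusted p = 0.159). Those of BIT and WT differed by 0.0388 rather than 0.0208 (same test, adjusted p = 0.429). A single molecule is 0.0074% at this depth, and how far the values vary between draws was not tested.

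The iNKT-type join was rarer still, with 33 clonotypes and 311 molecules in 10 of 17 mice. In WT mice it held 0%, 0.0279%, 0% and 0.00558% of in-frame molecules, and in β5i-KO mice 0.0234%, 0%, 0.0289%, 0.00740% and 0.0145%. In β5t-KO mice it held 0%, 0%, 0.00691% and 0%, and in BIT 1, 2, 4 and 5 it held 0.0125%, 0%, 0.0210% and 0.00137%. In the 7 mice without it, a count of 0 allows shares of up to 0.000963% (WT 3) to 0.00420% (WT 1). The join was thus found in 4 of 5 β5i-KO mice and in 1 of 4 β5t-KO mice, where it was 1 clonotype of 8 molecules.

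Over the mice of a group, the iNKT-type join averaged 0.0149% ± 0.0117 (β5i-KO), 0.00872% ± 0.00992 (BIT), 0.00837% ± 0.0133 (WT) and 0.00173% ± 0.00345 (β5t-KO). The lowest exact permutation p of the 5 comparisons was 0.257 (adjusted p = 0.714), for BIT against β5t-KO. The other exact p-values were 0.429 for β5i-KO against WT, 0.714 for β5t-KO against WT, 0.914 for BIT against WT and 0.413 for BIT against β5i-KO. BIT and WT differed by 0.000358 percentage points, a value whose sign changed in 5 of the 8 cases when a mouse was left out. In the same single draw of 13519 molecules, β5i-KO and WT differed by 0.0115 percentage points, beside 0.0065 at full depth. BIT and β5i-KO differed by -0.0133, beside -0.0061 at full depth (exact permutation test, adjusted p = 0.833 for both comparisons).

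**Figure D2:**
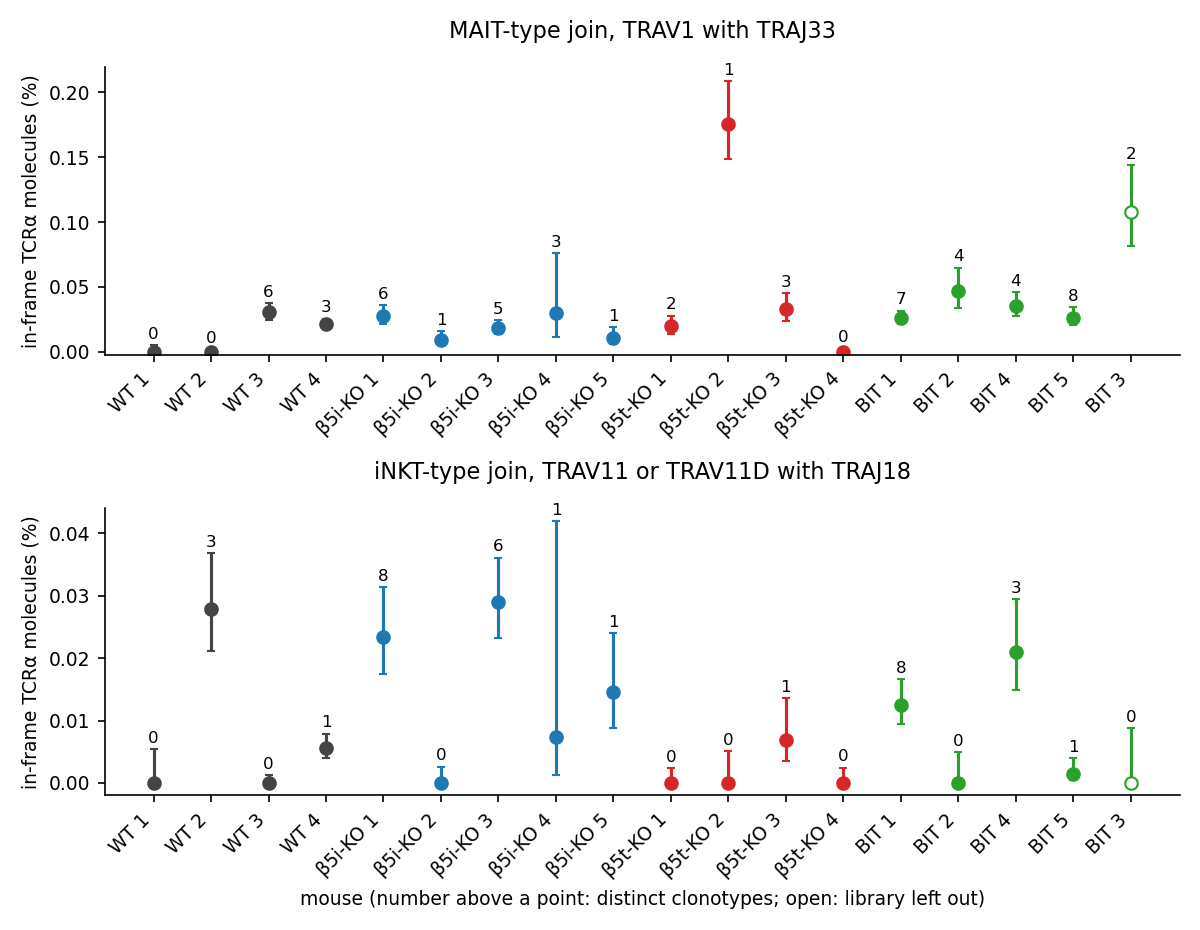
Share of in-frame TCRα molecules (%) that carried the MAIT-type join (top) or the iNKT-type join (bottom) in each mouse, with 95% Wilson intervals of the molecule count and the number of clonotypes above each point; the open circle is BIT 3, which entered no comparison. β5t-KO 2 is highest for the MAIT-type join at 0.176% with 1 clonotype, and 7 of the 17 mice used have no iNKT-type join.

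Counted as molecules over all V-J joins, neither innate-like join was called by edgeR. The lowest adjusted p over the 5 comparisons was 0.602 for the MAIT-type and 0.768 for the iNKT-type join. Of the 72 joins of the members found in the 17 mice, 51 passed the filter of 10 molecules in 4 libraries, and 0 were called in any comparison, with a lowest adjusted p of 0.182. Over all 2422 joins tested, the share called against WT was 0.413% in the β5t-KO mice, 0.0413% in the BIT mice and 0% in the β5i-KO mice, where 89 joins had an unadjusted p under 0.05. The background was 0.0413% in BIT against β5i-KO and 0.206% in BIT against β5t-KO. At an unadjusted p under 0.05, 23 of 255 tests of member joins passed (9.02%), and over all joins 951 of 12110 did (7.85%). By V unit, these were 6 of 140 tests for TRAV1 (4.29%) and 17 of 115 for TRAV11 with TRAV11D (14.8%). All 17 were of joins absent from every mouse of a group compared. TRAJ9, TRAJ22 and TRAJ47 were absent from the WT mice, and TRAJ4, TRAJ34, TRAJ38, TRAJ42 and TRAJ57 from the β5t-KO mice. Most of these joins were counted more than once, in comparisons that share mice. DESeq2 called 2 tests of member joins, both of TRAV11 or TRAV11D with TRAJ34, a join found in 2 of 4 WT, 5 of 5 β5i-KO, 0 of 4 β5t-KO and 3 of 4 BIT mice. They were called in β5t-KO against WT, where DESeq2 called 3.59% of the joins it gave an adjusted p, and in BIT against β5t-KO, where it called 2.55%. Over all 5 comparisons DESeq2 called 0.837% of 239 tests of member joins and 1.15% of 11375 tests of all joins. The median log2 difference of the 28 TRAV1 joins tested was 0.97 in BIT against β5t-KO, where that of all joins was 0.65. In β5t-KO against WT it was -0.26 for TRAV1 joins, beside -0.32 over all joins. For the 23 TRAV11 or TRAV11D joins tested, the medians were 0.19 and 0.56 in these comparisons.

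Few of the junctions matched the invariant receptors. The canonical MAIT form, a CDR3α of 12 residues that starts with CAV and ends with DSNYQLIW, was met by 7 of 54 clonotypes, in 5 mice and 64 molecules. Besides the invariant sequence it included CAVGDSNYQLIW in β5i-KO 3 (9 molecules) and BIT 1 (1 molecule, a single base from a larger clonotype of that mouse). The canonical iNKT form, 15 residues that start with CVV and end with the TRAJ18 residues RGSALGRLHF, was met by 11 of 33 clonotypes, in 6 mice and 93 molecules. These had 8 distinct amino acid sequences. WT 4 held 1 such clonotype (31 molecules), and the others lay in β5i-KO 1, β5i-KO 3, BIT 1, BIT 4 and BIT 5. No β5t-KO mouse had the canonical iNKT form. The 6 mice with it each held 18470 or more in-frame clonotypes, more than any other mouse used. By in-frame molecules they did not stand apart, since BIT 4, with the form, held 157160 and WT 3, without it, 311434.

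The CDR3 of the MAIT-type join had a median of 13 residues, as in other V genes joined to TRAJ33. Of its 54 clonotypes, 9 had 11 residues, 10 had 12, 19 had 13, 11 had 14, 4 had 15 and 1 had 16. The invariant length of 12 residues was thus met by 18.5%, beside 25.0% of 6065 clonotypes of other V genes with TRAJ33. Over the 5 mice with at least 5 such clonotypes, the shares averaged 18.9% and 24.4%, and the share of the MAIT-type join was higher in 1 of the 5 (exact paired permutation p = 0.125, where 0.0625 is the smallest possible). Clonotypes with no added base made up 25.9% of the MAIT-type join (14 of 54) and 18.1% of other V genes with TRAJ33. Some of those of the MAIT-type join still differed from the germline within the aligned bases, as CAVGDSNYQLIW of β5i-KO 3 did.

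The iNKT-type join had a median of 15 residues, like other V genes with TRAJ18. Among its 33 clonotypes, 20 had the invariant length of 15 residues (60.6%), beside 33.4% of 3551 clonotypes of other V genes with TRAJ18. The share was higher in 3 of the 3 mice with at least 5 clonotypes (56.9% against 33.1% on average). With 3 mice the exact paired permutation p cannot go below 0.25, which was the value found. Clonotypes with no added base made up 15.2% of the iNKT-type join (5 of 33) and 25.7% of other V genes with TRAJ18. Here too some of those of the join differed from the germline within the aligned bases, as that of WT 4 did. Of the clonotypes of the iNKT-type join 5, and of those of the MAIT-type join 3, lay 1 base from a larger clonotype of the same mouse with at least 10 times the reads.

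**Figure D3:**
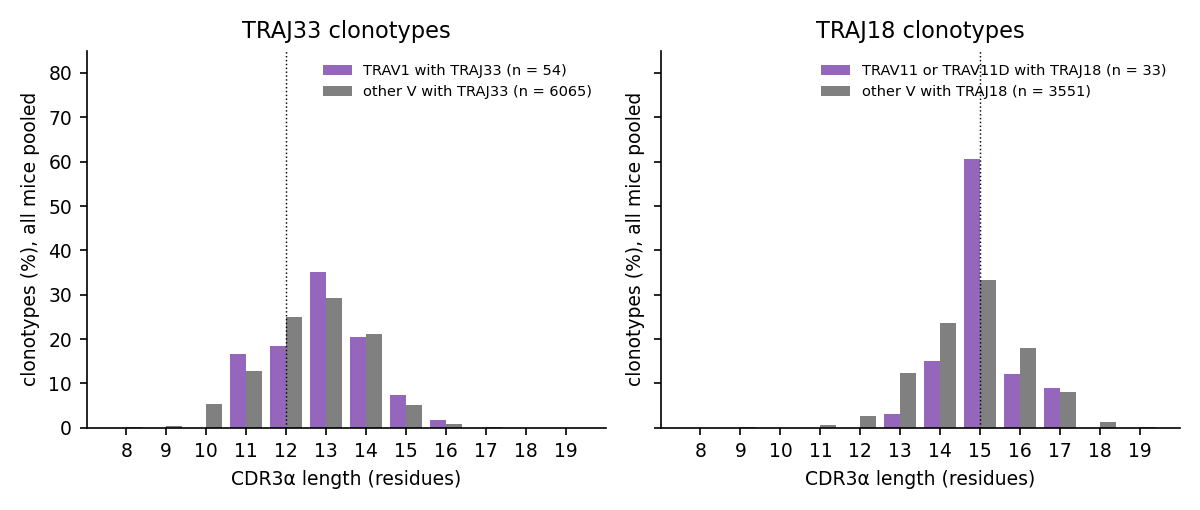
CDR3α length (residues) against the share of clonotypes (%, all 17 mice pooled) for TRAJ33 joined to TRAV1 or to other V genes (left) and TRAJ18 joined to TRAV11 or TRAV11D or to other V genes (right); dotted lines mark 12 and 15 residues, the lengths of the invariant chains. At the marked lengths the members stand at 18.5% beside 25.0% (left) and at 60.6% beside 33.4% (right).

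The use of TRAJ33 by TRAV1 did not pass the test against its use by other V genes. Pooled over mice it made up 2.77% of 1947 TRAV1 clonotypes and 2.88% of 210881 others. The mean over mice was 4.60% ± 7.67 against 2.88% ± 0.19 (n = 17), and TRAV1 was higher in 7 of 17 (paired permutation test, two-sided, p = 0.563, adjusted over 6 such tests 0.676). That mean rests on β5t-KO 2, in which 1 of 3 TRAV1 clonotypes used TRAJ33, and without it the difference was -0.0860 percentage points.

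TRAJ18 made up 5.33% of 619 TRAV11 or TRAV11D clonotypes and 1.67% of 212209 others. The mean over mice was 5.24% ± 8.16 against 1.66% ± 0.17 (n = 17), and the members were higher in 8 of 17 (paired permutation p = 0.0418, adjusted 0.244), which does not pass the threshold. The highest value, 33.3%, came from 3 of 9 clonotypes in WT 2, 1 of them a single molecule that lay 1 base from the clonotype of 43 molecules. Without WT 2 the difference was 1.82 rather than 3.57 percentage points.

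Rearrangements that are not in frame make no receptor and so give a reference that receptor selection does not see directly. TRAJ33 made up 54 of 1947 in-frame TRAV1 clonotypes (2.77%) and 25 of 1256 that were not in frame (1.99%). Over the 16 mice with at least 5 of each, the in-frame share was higher in 11 and lower in 3, and the means were 2.81% and 1.81% (exact paired permutation p = 0.0813, adjusted 0.244). TRAJ18 made up 33 of 619 in-frame (5.33%) and 12 of 288 other TRAV11 or TRAV11D clonotypes (4.17%). Over 11 mice the means were 4.16% and 5.67%, with 5 mice higher and 4 lower (exact p = 0.938). Without β5t-KO 1, in which 0 of 20 in-frame and 2 of 6 other clonotypes used TRAJ18, the difference turned from -1.51 to 1.67 percentage points.

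Both V units had many clonotypes that were not in frame. Of all 3203 TRAV1 clonotypes, 1256 (39.2%) were not in frame, almost all by a shifted reading frame, with 11 by a stop codon alone. For TRAV11 and TRAV11D it was 288 of 907 (31.8%), and for all other V genes 21561 of 231823 (9.30%). Among the 92 V units with at least 100 clonotypes, TRAV1 ranked 5 and TRAV11 with TRAV11D ranked 10, where the median V unit had 10.9%. This measure was chosen after its values were seen and is given as a description. In TRAV1, the share not in frame was above that of the other V genes in 17 of 17 mice. It averaged 43.1% ± 16.5 in the β5t-KO mice, 40.5% ± 3.92 in the BIT mice, 39.3% ± 2.62 in the β5i-KO mice and 37.5% ± 1.60 in the WT mice. The β5t-KO mean includes 1 of 4 clonotypes in β5t-KO 2 (25.0%) and 10 of 16 in β5t-KO 4 (62.5%). The other V genes averaged 8.29% to 9.41% in the 4 groups. In TRAV11 with TRAV11D the share was above that of the other V genes in 14 of 17 mice. The 3 exceptions, β5i-KO 2, β5t-KO 2 and β5t-KO 4, had 0 clonotypes not in frame beside 7, 1 and 10 in frame.

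**Figure D4:**
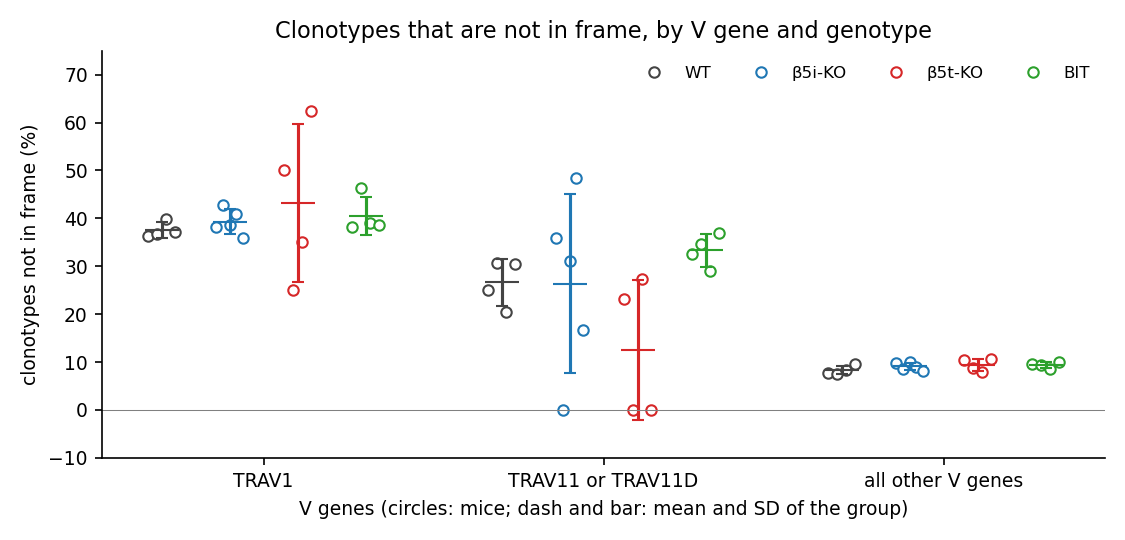
Share of TCRα clonotypes that were not in frame (%) for TRAV1, for TRAV11 or TRAV11D and for all other V genes, by genotype; circles are mice and the dash with bars gives the mean and SD of a group. TRAV1 lies between 25.0% (β5t-KO 2, 1 of 4 clonotypes) and 62.5% (β5t-KO 4, 10 of 16) in every mouse and the other V genes between 7.57% and 10.6%.

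The J partners of TRAV1 were spread unevenly along the J locus. The annotation holds 60 TRAJ genes, with TRAJ61 on the V side and TRAJ1 next to the constant gene, and TRAJ33 and TRAJ18 lie 29th and 44th in this order. TRAJ genes on the V side of TRAJ33 made up 9.11% ± 4.28 of TRAV1 clonotypes (n = 17, range 0% to 14.3%) and 34.7% ± 2.24 of those of other V genes (30.0% to 38.5%). TRAV1 was lower in 17 of 17 mice. The stretch from TRAJ33 to TRAJ18 made up 60.9% ± 10.4 of TRAV1 clonotypes and 39.5% ± 1.34 of the others, with TRAV1 higher in 16 of 17 mice. The pattern was in all 4 genotypes, since the mean share on the V side of TRAJ33 was 10.5% in the β5i-KO mice, 9.67% in the BIT mice, 9.38% in the WT mice and 6.51% in the β5t-KO mice. The β5t-KO mean includes 0% in β5t-KO 2 (3 clonotypes) and in β5t-KO 4 (6 clonotypes). The pattern was also in TRAV1 clonotypes that were not in frame (189 of 1256, with a mean over mice of 15.1% ± 6.04, beside 33.5% ± 2.51 for other V genes). TRAV2, the annotated V gene next to TRAV1, had 8.74% ± 5.92 on the V side of TRAJ33 (n = 16), so this feature was not particular to TRAV1.

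By single J genes, TRAV1 was joined most often to TRAJ23 (7.96% of clonotypes on average, 4.60% in other V genes), TRAJ31 (7.60% and 4.03%), TRAJ30 (7.54% and 4.55%), TRAJ22 (7.06% and 6.22%) and TRAJ26 (6.10% and 4.62%). The share of TRAJ23 was above that of the other V genes in 15 of 17 mice and that of TRAJ31 in 14. By this mean TRAJ33 ranked 10 among the 38 J genes found with TRAV1. Pooled over mice it made up 2.77%, behind TRAJ32 (4.01%), TRAJ12 (3.80%), TRAJ18 (3.65%) and TRAJ13 (2.93%), which ranked below it by the mean. TRAJ12, which human MAIT cells also use, was found with TRAV1 in 74 clonotypes (4.15% on average, 3.30% in other V genes), and TRAJ20 with no V gene of any clonotype.

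TRAV11 and TRAV11D were joined most often to other J genes, and their J genes were not shifted one way along the locus in all mice. J genes on the V side of TRAJ33 made up 31.3% ± 15.1, above the other V genes in 9 mice and below in 8. The most frequent partners were TRAJ27 (14.9% on average, 2.95% in other V genes), TRAJ32 (12.9% and 2.41%), TRAJ50 (7.55% and 1.63%), TRAJ6 (7.24% and 1.74%) and TRAJ26 (6.25% and 4.63%). TRAJ27 was above the other V genes in 14 of 17 mice and TRAJ6 in 12. These means weight mice with few clonotypes like the others, and pooled over mice TRAJ27 made up 13.2% and TRAJ32 9.05%. TRAJ50, with 27 clonotypes, made up 4.36% pooled, below TRAJ6 (7.27%) and TRAJ26 (6.79%). TRAJ22, the leading J gene of the other V genes at 6.25%, was found in 0.748% of TRAV11 or TRAV11D clonotypes on average. TRAJ18 ranked 7.

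**Figure D5:**
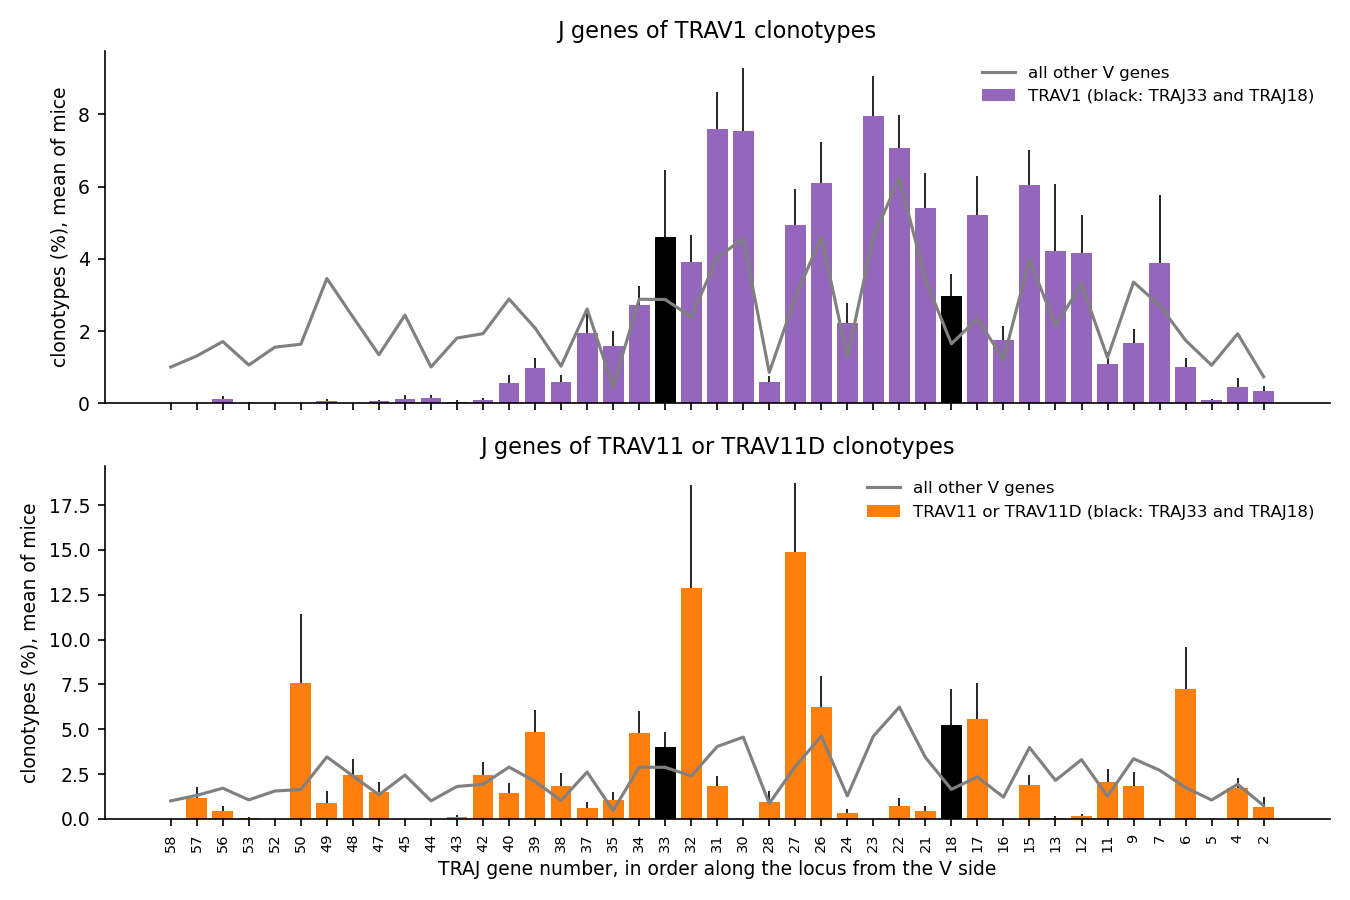
Share of in-frame clonotypes (%, mean of 17 mice, bars with 1 SEM) by TRAJ gene in its order along the locus, for TRAV1 (top) and TRAV11 or TRAV11D (bottom), with all other V genes as a grey line and TRAJ33 and TRAJ18 in black. TRAV1 has few J genes left of TRAJ33 (9.11% in all, 34.7% in other V genes), and TRAV11 stands out at TRAJ27 (14.9%) and TRAJ32 (12.9%).

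The J genes of both innate-like joins were also exchanged between the V genes. TRAV1 was joined to TRAJ18 in 71 clonotypes and 1122 molecules over 13 mice, more than to TRAJ33. TRAV11 or TRAV11D was joined to TRAJ33 in 30 clonotypes and 546 molecules over 11 mice. These joins belong to neither invariant receptor, and their abundance is given as a reference for joins of the same genes.

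Sequences found in several mice are given as a description. Of 1653 distinct TRAV1 clonotypes, 178 were found in 2 or more mice (10.8%), and of 576 of TRAV11 or TRAV11D 36 were (6.25%), beside 12.9% for all other V genes. The MAIT-type join had 6 shared sequences of 45 (13.3%) and the iNKT-type join 2 of 30 (6.67%). The member sequences found in most mice carried other J genes. They are printed because the 3 of TRAV1 hold no added base, like the invariant MAIT sequence, and the 1 of TRAV11 holds a single added base. They were chosen after their values were seen.
TRAV1 with TRAJ30, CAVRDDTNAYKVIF, 11 mice: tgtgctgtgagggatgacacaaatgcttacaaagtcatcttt
TRAV1 with TRAJ31, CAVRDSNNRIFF, 8 mice: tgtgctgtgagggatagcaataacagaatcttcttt
TRAV1 with TRAJ18, 7 mice: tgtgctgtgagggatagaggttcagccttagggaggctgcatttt
TRAV11 with TRAJ6, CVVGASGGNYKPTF, 4 mice: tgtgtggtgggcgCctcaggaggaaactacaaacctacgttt

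The TRAJ30 sequence was found in 2 of 4 WT, 4 of 5 β5i-KO, 1 of 4 β5t-KO and 4 of 4 BIT mice, with 291 molecules in all. The invariant MAIT sequence was found in 4 of the 17 mice, with 53 molecules. The 3 mice without the MAIT-type join, WT 1, WT 2 and β5t-KO 4, held 2589, 6186 and 1743 in-frame clonotypes, and the 4 mice with 6 or more clonotypes of it each held 16356 or more. In in-frame molecules, the 3 without the join held 71357, 175738 and 156150. The 4 with 6 or more clonotypes (WT 3, β5i-KO 1, BIT 1 and BIT 5) held 311434, 191947, 383303 and 218895. The part of sequencing depth in the number of mice per sequence was not tested.

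In some mice of 3 genotypes, a single clonotype held over 30% of the molecules of a V unit. In β5t-KO 2 a TRAV1-TRAJ7 clonotype of 316 molecules made up 59.1% of TRAV1 molecules and 0.424% of all in-frame molecules. In β5t-KO 4 a TRAV1-TRAJ12 clonotype (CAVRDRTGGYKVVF, 163 molecules) made up 39.1%, and in β5t-KO 1 a TRAV1-TRAJ26 clonotype (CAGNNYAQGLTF, 339 molecules) 20.3%. In β5t-KO 3 the largest held 3.83%, in WT 1 10.7% and in β5i-KO 2 7.13%. In the 4 BIT mice the largest TRAV1 clonotype made up 1.26% to 4.63% of TRAV1 molecules. WT 2, WT 3 and WT 4 (4.05%, 3.64% and 2.02%) and β5i-KO 1 and β5i-KO 3 (1.68% and 1.63%) lay in the same range. In β5i-KO 4 and β5i-KO 5 it made up 6.49% and 6.14%. TRAV1 clonotypes numbered 3 in β5t-KO 2, 6 in β5t-KO 4 and 74 to 284 in the BIT mice. In β5t-KO 4, the largest TRAV11 clonotype carried TRAJ33 (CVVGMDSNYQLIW, 141 molecules) and made up 25.9% of the molecules of TRAV11 and TRAV11D. The largest held 60.6% in WT 1, 31.7% in WT 2, 34.4% in β5i-KO 5 and 31.4% in β5i-KO 2. The TRAV11 clonotype of β5t-KO 2 was the only one of that unit there.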

How the data were processed

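RNA of sorted CD8 T cells from 20 labelled mice was made by the submitters into TCRα and TCRβ libraries with a kit that uses molecular identifiers, and clone tables were made with MiXCR; the build mm10 is named in the submitters' processing notes, and the MiXCR version is not given in the sources used here. The deposited tables give, per clone, raw counts of reads and of unique molecules. The study normalised reads to CPM for its own analysis, and no CPM values are in these columns. Bases that the deposited alignments place past a gene's germline end were taken as added. Bases that differ from the germline within an aligned stretch were not counted as added. Only TCRα tables were used here. The members and lists were chosen with earlier results of these data known.

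Clones were kept when in frame without a stop codon, and V and J genes were the first listed. V genes with at least 5 clonotypes in 4 libraries, and V-J joins with at least 10 molecules in 4 libraries, were tested with edgeR 4.0.16 (R 4.3.3, quasi-likelihood, library size scaling, all 4 groups in 1 fit, threshold 0.05 after Benjamini-Hochberg adjustment). Shares of the 2 joins, and paired shares per mouse, were tested by permutation (SciPy 1.17.1), exact or with 100000 resamples. Named were the members, their 5 most frequent J genes plus TRAJ33, TRAJ18, TRAJ12 and TRAJ20, the 5 sequences of each join in most mice (ties by mean share of molecules), member joins called, the 3 V genes most like each member and their annotated neighbours; exceptions are stated. Alternatives were DESeq2 1.42.0, TMM scaling, no filter, 2-group fits, a replicate block, BIT 3 included, other units, thinning to 13519 molecules, the canonical CDR3, clones of 2 or more molecules, any listed V gene, V neighbours and leaving out each mouse. No 2 libraries of a group were identical. The edgeR step was tested on simulated data. P-values of the group comparisons measure the spread between mice of a group. Those of the paired tests measure the spread of paired differences over mice, with genotypes pooled.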

Additional observations from a re-analysis of the deposited data

Results flagged for a closer look

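In β5t-KO mice, the iNKT-type join held 0.00691% of in-frame molecules in β5t-KO 3 and 0% in the other 3, so that mouse stood apart from its group. It was 1 clonotype of 8 molecules. Of 24 groups of values looked at in this way, 1 had such a mouse. Where the other 3 values are 0, the gap to the remaining mouse takes up the whole range by construction. A chance rate of about 1 in 20 therefore need not apply.

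The library of BIT 3, which entered no comparison, held TRAV1 at 1.66% of its 43493 in-frame molecules, above each WT mouse (at most 1.07%). It also held the MAIT-type join at 0.108% (95% Wilson interval 0.0813% to 0.144%), above each WT mouse (at most 0.0305%). Of the 47 molecules of this join, 46 carried the invariant sequence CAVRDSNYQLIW, and the 1 other differed from it by a single base. The library has 475 in-frame clonotypes, so few clonotypes set its shares.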

How the results depend on the processing

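Depth limits both joins: in the shallowest library, β5i-KO 4, a count of 0 allows a share of up to 0.0222%, with molecules taken as independent. TRAV1 in BIT against β5t-KO, called in the report (24 V-gene calls in all), kept its direction but lost its call under TMM (0.56, adjusted p = 0.108), DESeq2 (0.60, 0.0932), no filter (0.62, 0.0588), BIT 3 included (0.63, 0.0543) and molecules (0.75, 0.192). It kept it in the 2-group fit (0.60, 0.0312) and with TRAV11 and TRAV11D merged (0.62, 0.0497). The cause was not tested. Replicate numbers gave no pairing of the mice (correlations of same-numbered mice from -0.29 to 0.28, over 0.1 in 7 of 22 pairs), and with the replicate block the value was 0.60 (adjusted p = 0.109). V-gene calls fell to 13 under TMM and 15 with no filter. Calls of V-J joins, 17 in the report, were 131 by DESeq2, 10 with BIT 3 included and 30 with clonotypes, and DESeq2 called 2 member joins.

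Signs that turned, none of them called, were as follows. The iNKT-type join in BIT minus WT was -0.0043 percentage points by reads, -0.0017 by clonotypes, -0.0018 thinned and -0.0014 with BIT 3. The MAIT-type join was 0.0037 thinned in BIT minus β5t-KO. For the canonical forms, BIT minus β5i-KO was -0.0014 (MAIT) and 0.0013 (iNKT). TRAJ33 in TRAV1 against neighbouring V genes was -0.346. On the log2 scale, TRAV1 in β5i-KO against WT was -0.040 under TMM and -0.063 by DESeq2. TRAV11 was 0.16 by molecules in BIT against β5i-KO and -0.029 by DESeq2 in BIT against β5t-KO. The iNKT-type join in BIT against WT was -0.023 by DESeq2, -0.014 with the replicate block, -0.24 with BIT 3 and -0.57 by reads.

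Leaving out each mouse in turn gave -0.00373 to 0.00686 for the iNKT-type join in BIT minus WT, and -0.0424 to 0.0163 for the MAIT-type join in BIT minus β5t-KO. TRAJ33 in TRAV1 against other V genes ranged from -0.0860 to 2.03, and TRAJ18 in-frame against not in frame from -2.35 to 1.67 (turned without β5t-KO 1). V-gene calls ranged from 7 (without WT 2 or β5t-KO 1) to 37 (without β5i-KO 2), and were 11 to 15 without β5i-KO 1, β5t-KO 2, β5t-KO 4, BIT 1, BIT 2 or BIT 5. Calls of member joins ranged from 0 to 2 (TRAV1 with TRAJ27, without β5t-KO 3). TRAV1 ranged from 0.42 to 0.75 in BIT against β5t-KO and from -0.059 to 0.16 in β5i-KO against WT. TRAV11 ranged from -0.17 to 0.094 in BIT against β5i-KO and from -0.24 to 0.30 in BIT against β5t-KO. In the fits of V-J joins, the MAIT-type join ranged from -1.18 to 0.94 in BIT against β5t-KO and the iNKT-type join from -0.82 to 2.12 in BIT against WT.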

Other observations

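TRAV11N, a further copy of TRAV11 that the annotation lists as a pseudogene (chr14:53372579-53373135, GRCm39), was the first V gene of 67 in-frame clones and was not counted with the members. Of these, 7 were joined to TRAJ18 (10.4%), in 5 mice and with 87 molecules. Of its 214 clonotypes, 147 (68.7%) were not in frame, the second highest share among the 92 V units with at least 100 clonotypes.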
